A study of Mus musculus with 8 samples.

Results

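The genes described here mark the interstitium and the stromal progenitors of the fetal mouse gonad. They are 9 genes, taken by name: the receptors Pdgfra and Pdgfrb, the transcription factors Tcf21, Nr2f1 and Nr2f2, the matrix genes Dcn, Lum and Lox, and the membrane peptidase gene Enpep. The array annotation maps 21 probe sets to them alone, of 45037 probe sets tested, and the 9 genes stand among 18193 genes with a symbol. RNA from embryonic day 13 was hybridised to 8 Affymetrix mouse expression arrays, in 4 groups of 2. The groups were XY Sertoli cells and XX pre-granulosa cells, each sorted for EGFP, and whole XY testes and whole XX ovaries, which were not sorted. All samples carry the strain label C57BL6/J-Tg92, so the gonads come from the transgenic line as well. Each Sertoli sample held about 22000 cells and each pre-granulosa sample about 30000, and each gonad sample pooled 4 gonads. The promoter that drives EGFP is not given in the sources used here, and the labels leave it unsaid if the paired samples within a group had different litters as their source. The p-values below therefore measure the spread between these samples, which may be technical.

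Interstitial cells lie between the testis cords or among the germ cell nests and include the precursors of steroid-producing cells. Platelet-derived growth factors, made in part by the supporting cells, act on them through the receptor tyrosine kinases encoded by Pdgfra and Pdgfrb. Tcf21 encodes a bHLH factor and Nr2f1 and Nr2f2 encode the orphan nuclear receptors COUP-TFI and COUP-TFII, and COUP-TFII is widely used as a mark of interstitial progenitors in mouse gonads. Decorin and lumican are small leucine-rich proteoglycans that bind collagen fibrils, lysyl oxidase crosslinks collagen and elastin, and Enpep encodes aminopeptidase A, which cleaves angiotensin II.

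Values are log2 RMA values as deposited, so a difference of 1 is 2-fold. The array medians were 5.57 to 5.61 in sorted cells and 5.96 to 5.99 in gonads, and the ranked values were nearly equal within each of these sets but not between them. Sorted minus gonad differences are therefore given relative to the median probe set, which takes out a shift of -0.39 between the sets, and sorting and a separate normalization of the sets cannot be told apart. A difference is called where limma, a linear model whose variances are moderated over all probe sets, gave an adjusted p of 0.01 or less. Signals up to 4.78, the highest reading in XX arrays of 9 probe sets of Y-linked genes, are taken as background. All 6 Sertoli markers measured were higher in Sertoli than in pre-granulosa cells, 5 of them called. All 5 pre-granulosa markers were lower in Sertoli cells, 2 of them called. Sox9, the Sertoli marker not called (adjusted p = 0.0541), read 9.46 and 10.56 in pre-granulosa cells against 8.07 and 8.41 in ovaries. For 3 of the 6 Sertoli markers pre-granulosa cells read above ovaries without overlap by 1 log2 unit or more (5.1% of all genes), 0 of them called. Dhh, the hedgehog ligand of Sertoli cells, read 12.35 and 12.19 in Sertoli cells against 5.17 and 6.39 in pre-granulosa cells. Foxl2, the granulosa transcription factor, read 5.19 and 5.43 in Sertoli cells against 8.99 and 9.65 in pre-granulosa cells. The excess of 3' over 5' signal for Gapdh, a measure of RNA length, was 1.94 and 2.69 in the Sertoli samples, 3.68 and 1.24 in pre-granulosa cells, 0.720 and 0.954 in testes, and 1.55 and 1.40 in ovaries. Pre-granulosa replicate 1 had the largest excess.

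RefSeq promoter windows of the GRCm38.p6 build were held for 5 of the 9 genes. The 250 bases before the start are printed for the 4 of them with the larger differences between sorted cells and gonads, although those of Nr2f2 were not called on its brightest probe set. They lie at chr5:75152001-75152250 on the plus strand for Pdgfra, and on the minus strand at chr10:22820144-22820393 for Tcf21, chr7:70366747-70366996 for Nr2f2 and chr3:129332750-129332999 for Enpep. Sequences run 5′ to 3′ along the gene, and capitals mark E-boxes (CANNTG, the motif class bound by bHLH factors such as Tcf21) and nuclear receptor half-sites (AGGTCA or its reverse complement).
Pdgfra: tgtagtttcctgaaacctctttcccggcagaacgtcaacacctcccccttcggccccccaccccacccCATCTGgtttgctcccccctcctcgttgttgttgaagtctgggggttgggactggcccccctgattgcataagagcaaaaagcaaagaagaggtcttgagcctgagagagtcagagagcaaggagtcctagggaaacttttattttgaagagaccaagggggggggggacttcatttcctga
Tcf21: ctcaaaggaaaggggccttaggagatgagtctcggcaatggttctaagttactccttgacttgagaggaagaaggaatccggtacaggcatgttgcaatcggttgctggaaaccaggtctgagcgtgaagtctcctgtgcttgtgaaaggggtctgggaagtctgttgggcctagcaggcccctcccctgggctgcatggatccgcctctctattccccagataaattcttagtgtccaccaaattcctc
Nr2f2: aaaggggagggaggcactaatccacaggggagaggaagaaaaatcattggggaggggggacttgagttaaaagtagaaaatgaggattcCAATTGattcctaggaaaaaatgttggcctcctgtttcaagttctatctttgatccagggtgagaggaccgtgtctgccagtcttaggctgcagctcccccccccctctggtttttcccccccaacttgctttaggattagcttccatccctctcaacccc
Enpep: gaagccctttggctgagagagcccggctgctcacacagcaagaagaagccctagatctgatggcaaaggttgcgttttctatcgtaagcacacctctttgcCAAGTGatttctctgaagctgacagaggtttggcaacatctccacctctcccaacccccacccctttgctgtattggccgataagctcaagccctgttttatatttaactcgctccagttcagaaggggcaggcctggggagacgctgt
An E-box was found once each in the Pdgfra, Nr2f2 and Enpep windows and 0 times in that of Tcf21, while 66.2% of 32851 promoter windows of this length hold it. The half-site was found in 0 of the 4 windows, against 14% of all windows, and no match overlapped another. Nr2f1, the other gene with a window, has 2 of them, with 0 and 2 E-boxes. A match describes the letters of a window and does not show a bound site.

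Sorted supporting cells were compared with the whole organs they came from. In Sertoli cells, 5 of the 9 genes fell below testes (Pdgfra, Pdgfrb, Tcf21, Lox and Enpep) and 0 rose, where 4.4% of all 18193 genes were called lower and 2.47% higher. In pre-granulosa cells 5 of 9 fell below ovaries (Pdgfra, Pdgfrb, Tcf21, Lum and Lox) and 0 rose, where 4.11% of all genes were called lower and 1.29% higher. The median difference of the 9 genes was -3.07 for Sertoli minus testis and -2.86 for pre-granulosa minus ovary, against 0.10 and -0.01 for all genes. Both Sertoli arrays lay below both testis arrays by 1 log2 unit or more on average for 9 of 9 genes (13.3% of all genes), and both pre-granulosa arrays below both ovary arrays for 8 of 9 (13.8%), the exception being Nr2f1. On 3 of the genes, Lum, Lox and Enpep, all 4 sorted arrays read at or under background, as they did for 18.7% of all genes. In bulk samples, fewer cells of a type and less RNA per cell cannot be told apart.

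**Figure D1:**
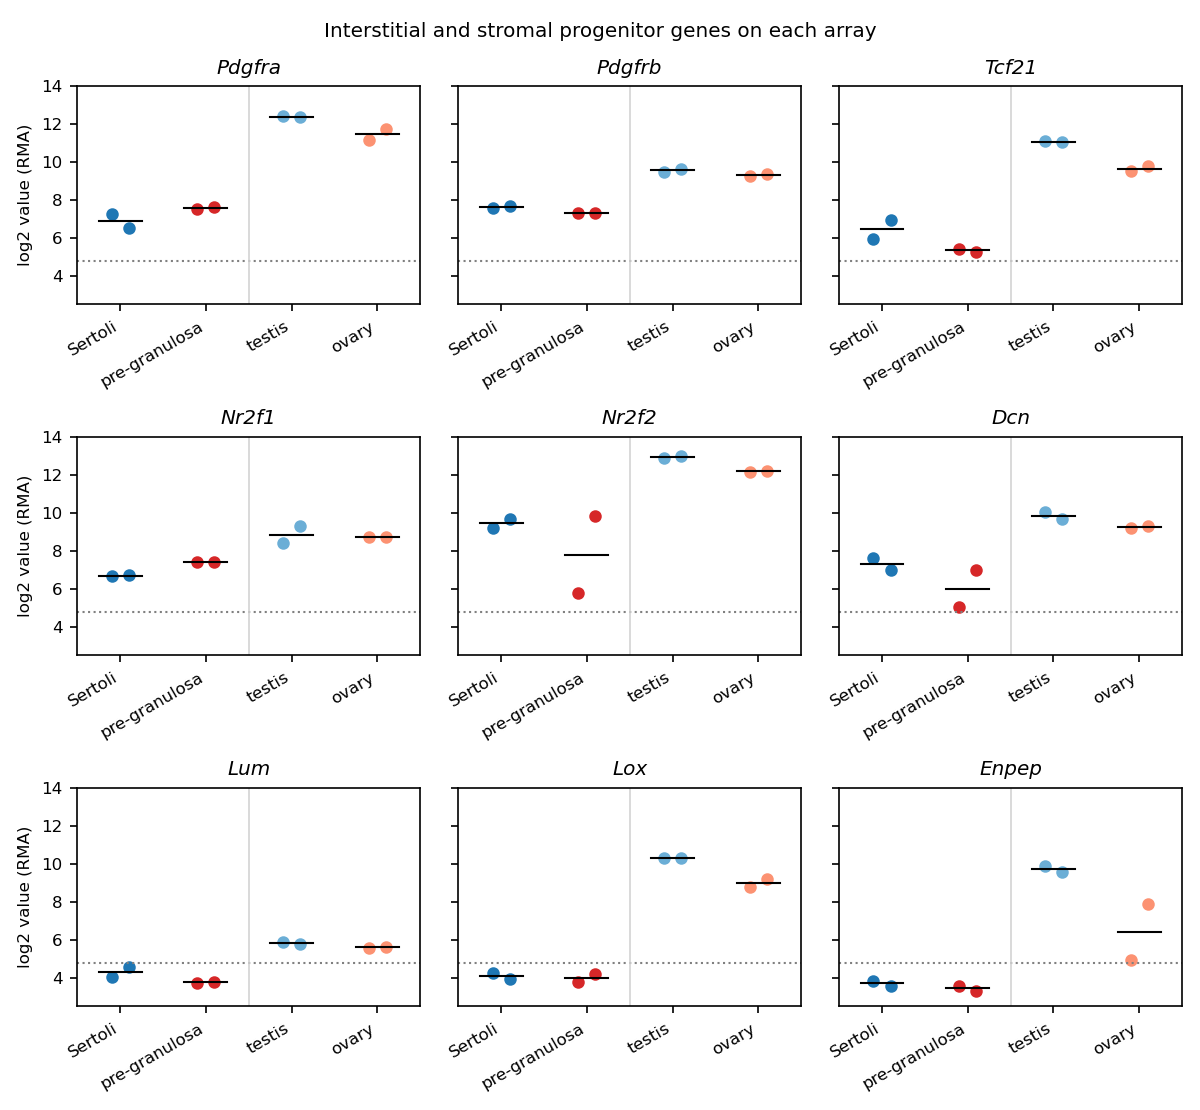
Log2 RMA values of the 9 genes on each of the 8 arrays, by group. Points are arrays, horizontal bars are group means, the dotted line is the background level of 4.78, and the vertical line separates the sorted-cell arrays from the gonad arrays, which appear to have been normalized separately. For each gene both Sertoli arrays read below both testis arrays and both pre-granulosa arrays below both ovary arrays.

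The calls rest on the spread pooled over the 4 groups. Without either testis array, limma called 0 of the 9 genes for Sertoli minus testis, and 0 genes in the whole table (lowest adjusted p 0.015 and 0.0159 over all probe sets). Without ovary replicate 1 or replicate 2 it called 0 of 9 for pre-granulosa minus ovary, as it did with the 4 pre-granulosa and ovary arrays alone. Without Sertoli replicate 1 or replicate 2, 3 of the 9 genes were called for Sertoli minus testis, and the whole table had 329 or 280 called genes, against 1250 with all arrays. Without either testis array 1 of the 9 was called for pre-granulosa minus ovary and 128 of all genes, against 982 with all arrays, and without ovary replicate 1 or replicate 2 the whole table had 0 or 6. With all arrays, the 9 unadjusted p-values from limma were under 0.05 in both comparisons, and the share of all genes at that level was not taken. At an adjusted p of 0.05, 4656 of all 18193 genes were called for Sertoli minus testis and 3887 for pre-granulosa minus ovary. By group means of the brightest probe sets, testes were highest and ovaries next for all 9 genes, followed by Sertoli cells for 7 and by pre-granulosa cells for Pdgfra and Nr2f1. Neighbours in that order overlapped for Nr2f1 between testes and ovaries, and for Nr2f2, Lox and Enpep between Sertoli and pre-granulosa cells. For Lum, Lox and Enpep the order of the sorted groups lies between background readings and is not a measurement. Other probe sets of Dcn, Nr2f2 and Pdgfra reversed parts of the order, as given below.

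Of the receptors, Pdgfra read 7.24 and 6.55 in the Sertoli samples, 7.50 and 7.64 in pre-granulosa cells, 12.41 and 12.37 in testes, and 11.17 and 11.76 in ovaries. The 4 groups did not overlap, with testes highest and Sertoli cells lowest. It was 34.2-fold lower in Sertoli cells than in testes (-5.10 ± 0.29, difference ± SE, adjusted p = 0.000907) and 11.4-fold lower in pre-granulosa cells than in ovaries (-3.51 ± 0.29, adjusted p = 0.00212). A second probe set with readings near background in sorted cells was called for Sertoli minus testis as well (at least 3.4-fold lower, adjusted p = 0.00414), and the remaining one was not (-1.02, adjusted p = 0.211). For pre-granulosa minus ovary neither of them was called (adjusted p = 0.0223 and 0.187).

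Pdgfrb, the receptor of mural and interstitial cells, had a smaller gap on its brightest probe set. It read 7.59 and 7.71 in the Sertoli samples, 7.33 and 7.34 in pre-granulosa cells, 9.49 and 9.62 in testes, and 9.25 and 9.39 in ovaries. Again no groups overlapped. The differences were -1.50 ± 0.14 for Sertoli minus testis (2.84-fold lower, adjusted p = 0.00267) and -1.60 ± 0.14 for pre-granulosa minus ovary (3.04-fold lower, adjusted p = 0.00245). The second probe set was called lower in both comparisons as well (-3.43 ± 0.38, adjusted p = 0.00416 for Sertoli minus testis, and adjusted p = 0.00187 for pre-granulosa minus ovary). Its pre-granulosa arrays read 4.00 and 5.09, only 1 of them above background, so no fold is given there.

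Among the transcription factors, Tcf21 read 5.93 and 6.97 in the Sertoli samples, 5.43 and 5.28 in pre-granulosa cells, 11.10 and 11.03 in testes, and 9.50 and 9.79 in ovaries. It was 18.6-fold lower in Sertoli cells than in testes (-4.22 ± 0.33, adjusted p = 0.00179) and 15-fold lower in pre-granulosa cells than in ovaries (-3.91 ± 0.33, adjusted p = 0.00231). Its second probe set read at or under background on all 8 arrays.

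On its brighter probe sets Nr2f2 stayed above background in sorted cells. Its brightest probe set read 9.22 and 9.71 in the Sertoli samples, 5.80 and 9.82 in pre-granulosa cells, 12.88 and 12.98 in testes, and 12.15 and 12.22 in ovaries. The pre-granulosa arrays lay far apart, and neither comparison was called (-3.07 ± 1.16, adjusted p = 0.0972 for Sertoli minus testis, and -4 ± 1.16, adjusted p = 0.0557 for pre-granulosa minus ovary). The next brightest probe set read 8.81 and 8.14 in the Sertoli samples, 8.54 and 8.71 in pre-granulosa cells, 11.89 and 11.79 in testes, and 10.95 and 11.12 in ovaries. It was called in both comparisons, 7.8-fold lower in Sertoli cells than in testes (adjusted p = 0.00185) and 4.09-fold lower in pre-granulosa cells than in ovaries (adjusted p = 0.00502). The dimmest Nr2f2 probe set read 3.55 to 3.99 on the 4 sorted arrays, under background, and another read 4.37 and 4.02 in the Sertoli samples. Over the 6 Nr2f2 probe sets the differences ran from -3.07 to -0.22 for Sertoli minus testis and from -4 to -0.33 for pre-granulosa minus ovary.

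Nr2f1, its close relative, had the smallest gap between pre-granulosa cells and ovaries of the 9 genes. It read 6.66 and 6.72 in the Sertoli samples, 7.44 and 7.4 in pre-granulosa cells, 8.40 and 9.31 in testes, and 8.74 and 8.74 in ovaries. Neither Sertoli minus testis (-1.76 ± 0.29, adjusted p = 0.0112) nor pre-granulosa minus ovary (-0.93 ± 0.29, adjusted p = 0.0669) was called. The testis arrays enclosed the ovary arrays, so the order of the organs is not settled for this gene.

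Of the matrix genes, Lox had the largest gap. Its brightest probe set read 4.25 and 3.94 in the Sertoli samples, 3.81 and 4.21 in pre-granulosa cells, 10.29 and 10.29 in testes, and 8.77 and 9.22 in ovaries. All sorted readings were at background, so it was lower by a factor of at least 34.7 in Sertoli cells than in testes (adjusted p = 0.000519) and at least 14.2-fold lower in pre-granulosa cells than in ovaries (adjusted p = 0.000803). The second probe set gave a bound of 6.25-fold lower for Sertoli cells (adjusted p = 0.00125) and of 1.4-fold lower for pre-granulosa cells, which was not called (adjusted p = 0.0105). The remaining one read under background on all 8 arrays.

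Dcn read 7.62 and 7.02 in the Sertoli samples, 5.06 and 6.98 in pre-granulosa cells, 10.03 and 9.66 in testes, and 9.20 and 9.32 in ovaries on its brightest probe set. That set was not called (-2.13 ± 0.60, adjusted p = 0.0462 for Sertoli minus testis, and -2.86 ± 0.60, adjusted p = 0.0233 for pre-granulosa minus ovary). The second probe set read 5.06 and 4.19 in the Sertoli samples, 4.36 and 4.81 in pre-granulosa cells, 7.36 and 7.33 in testes, and 9.02 and 8.63 in ovaries. It was called lower in both comparisons (adjusted p = 0.00721 and 0.00231), but only 1 array of each sorted group was above background, so no fold is given.

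Lum was dim throughout, at 4.03 and 4.59 in the Sertoli samples, 3.75 and 3.8 in pre-granulosa cells, 5.88 and 5.80 in testes, and 5.59 and 5.65 in ovaries. It was at least 1.36-fold lower in pre-granulosa cells than in ovaries (adjusted p = 0.00791) and at least 1.59-fold lower in Sertoli cells than in testes, which was not called (adjusted p = 0.0145). Dcn and Lum lie side by side on chromosome 10, followed by Kera and Epyc, which encode further proteoglycans of the same family. Epyc ran the other way, at 5.72 and 5.6 in the Sertoli samples, 4.05 and 4.23 in pre-granulosa cells, 5.01 and 5.04 in testes, and 4.38 and 4.46 in ovaries. It was called higher in Sertoli cells than in testes (1.03 ± 0.14, adjusted p = 0.00685) and higher than in pre-granulosa cells, at least 1.84-fold (adjusted p = 0.00428). Kera read 3.43 to 3.68 in sorted cells and 4.12 to 6.28 in gonads, with the replicates of each organ more than 1 log2 unit apart.

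Enpep read 3.86 and 3.56 in the Sertoli samples, 3.60 and 3.32 in pre-granulosa cells, 9.89 and 9.60 in testes, and 4.97 and 7.91 in ovaries. It was at background in sorted cells and uneven between the ovary arrays (6.44 ± 2.08, mean ± SD, n = 2). In Sertoli cells its level was under that of testes by at least 23.8-fold (adjusted p = 0.00851), and the pre-granulosa minus ovary comparison, with a bound of 2.41-fold lower, was not called (adjusted p = 0.0745). Its fitted difference was -4.06 without ovary replicate 1 and -1.14 without ovary replicate 2.

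Markers of other cell types also differed between sorted cells and whole gonads. All 5 germ cell markers were called lower in sorted cells in both comparisons, with Ddx4, an RNA helicase of germ cells, at 3.40 and 4.66 in Sertoli cells against 10.66 and 10.62 in testes, and at 3.13 and 3.75 in pre-granulosa cells against 10.89 and 10.85 in ovaries. Of 3 embryonic globin genes, 3 were called lower in Sertoli cells than in testes and 2 lower in pre-granulosa cells than in ovaries. Kdr, a receptor of endothelial cells, was the 1 called lower of 5 endothelial markers in each comparison. Not every list was lower in sorted cells. Of 5 macrophage markers 0 were called, with 4 differences above 0 for Sertoli minus testis (median 0.55) and 0 for pre-granulosa minus ovary (median -1.72). Of 3 markers of mesonephric epithelium, 1 was called higher in sorted cells in each comparison (medians 1.18 and 0.75). The mean level of the germ cell list was 4.46 to 5.18 on sorted arrays and 10.49 to 10.72 on gonad arrays, and that of the globin list 7.11 to 7.99 and 10.87 to 11.36. The part of these cells in the level of any gene above was not tested.

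**Figure D2:**
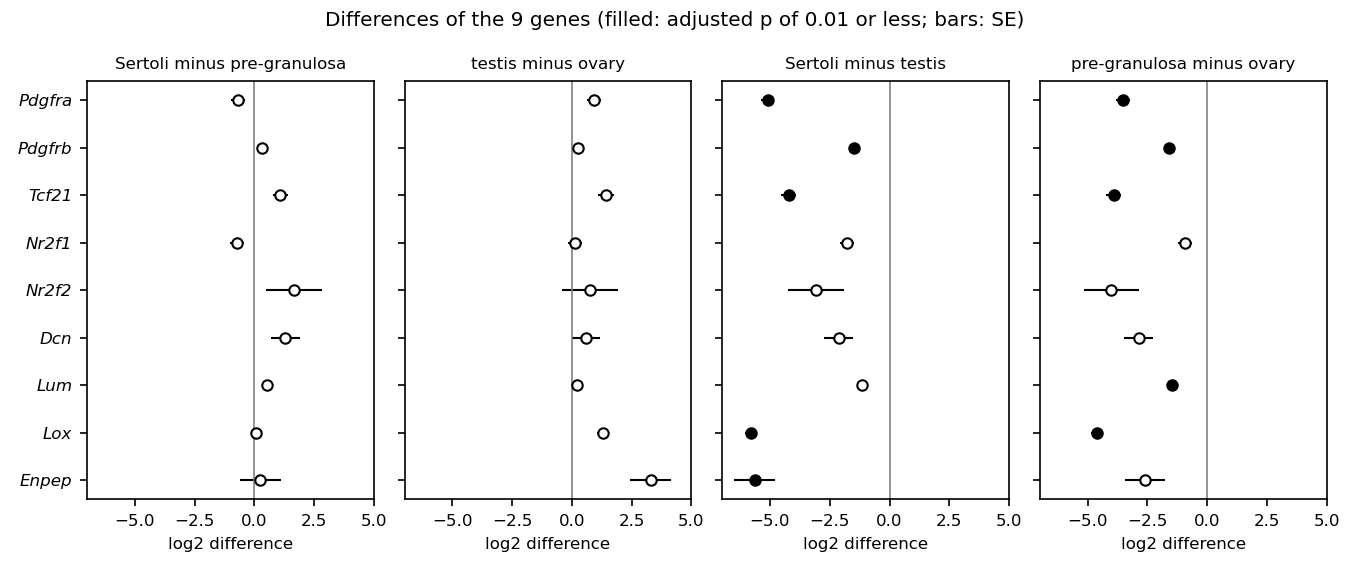
Differences (log2) of the 9 genes in 4 comparisons, each on its brightest probe set. Points are estimates from limma, bars are standard errors, and filled points have an adjusted p of 0.01 or less. In the sorted minus gonad panels, which are relative to the median probe set, all points lie below 0, and in the XY minus XX panels no point is filled.

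Testes were then compared with ovaries. limma called 0 of the 9 genes (4 had an unadjusted p under 0.05), where 0.352% of all genes were called. The linear model without moderation called 0 genes in the whole table, so its 0 of 9 says nothing about these genes. All 9 differences were above 0, as were 44.2% of all genes, with a median of 0.75 against -0.04 for all genes. Both testis arrays read above both ovary arrays for 8 of 9 genes, as they did for 24.4% of all genes, and the exception was Nr2f1. For 3 genes the gap without overlap reached 1 log2 unit, which 3.11% of genes did: Enpep at 3.30 ± 0.86 (adjusted p = 0.244), Tcf21 at 1.42 ± 0.33 (0.196) and Lox at 1.29 ± 0.23 (0.0956). The Enpep difference was 1.83 without ovary replicate 1 and 4.77 without ovary replicate 2. Pdgfra differed by 0.93 ± 0.29 (0.354), Nr2f2 by 0.75 ± 1.16 (0.971) and Pdgfrb by 0.24 ± 0.14 (0.75), none called. The SE of Nr2f2 is pooled over the 4 groups and does not measure the spread of the organs alone. Its SD was 0.06 in testes and 0.05 in ovaries, against 2.85 in pre-granulosa cells.

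Probe sets of a gene did not always run together between testes and ovaries. The second Lox probe set had the lowest p of the 21, with 7.99 and 7.64 in testes against 5.93 and 5.38 in ovaries (2.16 ± 0.23, adjusted p = 0.0192, not called). All 3 Pdgfra probe sets had a difference above 0, from 0.83 to 1.02. The 6 Nr2f2 probe sets spanned -0.16 to 1.41. Dcn pointed both ways: its brightest probe set read 10.03 and 9.66 in testes against 9.20 and 9.32 in ovaries, while the second read 7.36 and 7.33 in testes against 9.02 and 8.63 in ovaries (-1.47 ± 0.33, adjusted p = 0.176). With both averaged the Dcn difference was -0.44, so no direction can be given for this gene. In all, 18 of the 21 probe sets had a difference above 0, against 45.5% of all probe sets, but 2 of the 18, of Tcf21 and Lox, read at background on all 8 arrays.

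Leydig cell markers moved with the same contrast. Of 4 measured, 3 were called higher in testes, among them Cyp17a1, a steroid hydroxylase, at 11.87 and 11.53 in testes against 5.52 and 5.74 in ovaries. Ovaries also had the larger 3' excess given above. The part of either in the differences of the 9 genes was not tested.

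**Figure D3:**
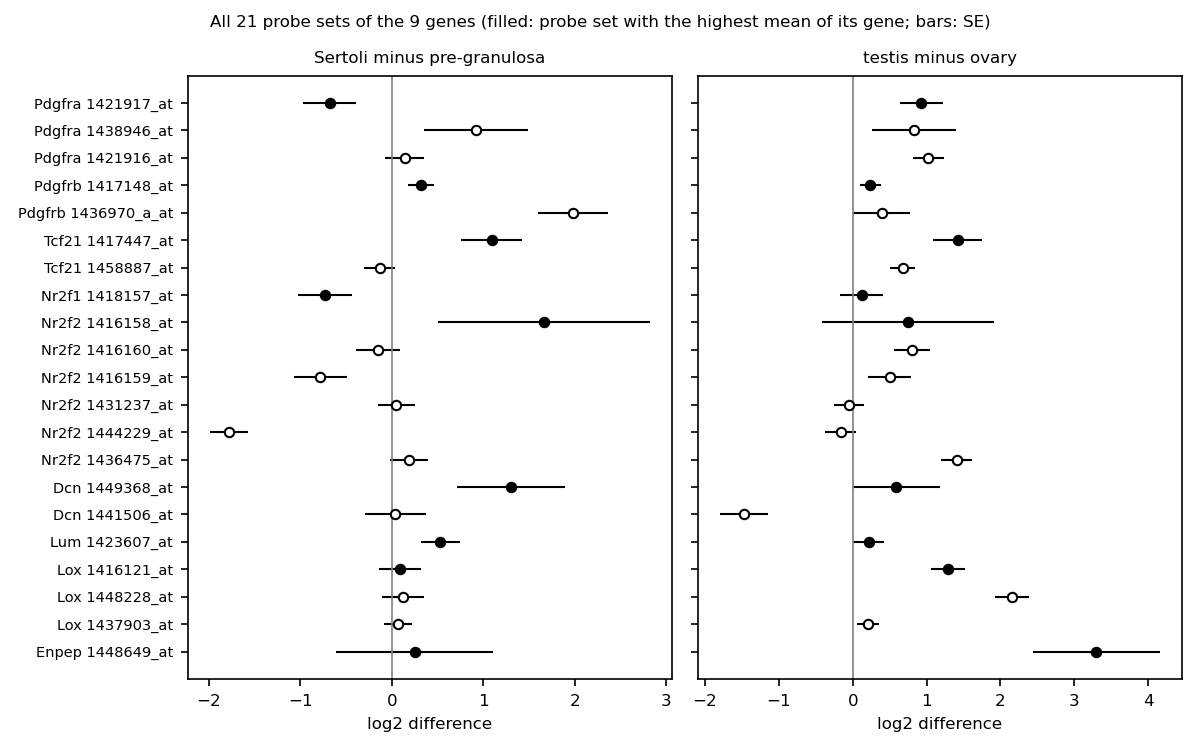
Differences (log2) of all 21 probe sets of the 9 genes for Sertoli minus pre-granulosa (left) and testis minus ovary (right). Filled points are the probe set with the highest mean of each gene, open points the others, and bars are standard errors. Probe sets of Dcn and of Nr2f2 lie on both sides of 0 for testis minus ovary, and those of Pdgfra, Nr2f2 and Tcf21 for Sertoli minus pre-granulosa, where the second Tcf21 probe set is at background on all 8 arrays.

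Sertoli cells were next compared with pre-granulosa cells. The linear model without moderation called 0 of the 9 genes, but only 8 genes in the whole table. With moderation, limma called 0 of 9 (3 had an unadjusted p under 0.05), against 2.67% of all genes. Without pre-granulosa replicate 2 it called 1, Nr2f2, for which the remaining pre-granulosa array is the low one of 5.80. That fit called 916 of all genes, against 485 with all arrays. The 9 differences had a median of 0.32 against 0.04 for all genes, and 7 of them were above 0 (55% of all genes). For Lum, Lox and Enpep, 3 of these 7, all sorted readings are at background and the sign carries no measurement, which leaves 4 of 6 genes. Tcf21 differed by 1.09 ± 0.33 (adjusted p = 0.139), Dcn by 1.30 ± 0.59 (0.316) and Nr2f2 by 1.66 ± 1.16 (0.532). Without pre-granulosa replicate 1, the array with the largest 3' excess, the Dcn difference was 0.34 and that of Nr2f2 was -0.35, and without pre-granulosa replicate 2 they were 2.26 and 3.67. Nr2f1 and Pdgfra ran the other way, at -0.73 ± 0.29 (0.244) and -0.68 ± 0.29 (0.282), with no overlap between the arrays of the groups, a pattern of 2 of the 9 genes and of 19.1% of all genes. A gap of 1 log2 unit or more without overlap was seen upward for 2 genes, Tcf21 and Dcn (7.56% of all genes), and downward for 0 (5.91%).

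A single probe set of the 21 was called between the supporting cells, where 1.81% of all probe sets were. It belongs to Nr2f2 and read 4.37 and 4.02 in Sertoli cells against 6.17 and 5.79 in pre-granulosa cells, at least 2.29-fold lower in Sertoli cells (adjusted p = 0.00835). The other 5 Nr2f2 probe sets differed by -0.78 to 1.66 and were not called. The second Pdgfrb probe set read 6.82 and 6.23 in Sertoli cells against 4.00 and 5.09 in pre-granulosa cells (1.98 ± 0.38, adjusted p = 0.0386, not called).

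Markers of other cell types also differed between the sorted samples. The mean level of 4 Leydig markers was 8.23 and 9.39 in Sertoli samples against 6.92 and 6.47 in pre-granulosa samples, and that of 5 macrophage markers was 5.98 and 7.76 in Sertoli samples against 4.72 and 4.48 in pre-granulosa samples. Sertoli replicate 2, the higher array on both lists, was the higher one for 4 of the 6 genes above background (Pdgfrb, Tcf21, Nr2f1 and Nr2f2) and the lower one for Pdgfra and Dcn. Without it the Tcf21 difference was 0.58 and that of Pdgfra was -0.34. C1qb, a complement gene, was the 1 called of 5 macrophage markers (4.49 ± 0.45, adjusted p = 0.00504), and 0 of 4 Leydig and 0 of 5 endothelial markers were called. The part of such cells in these differences was not tested.

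**Figure D4:**
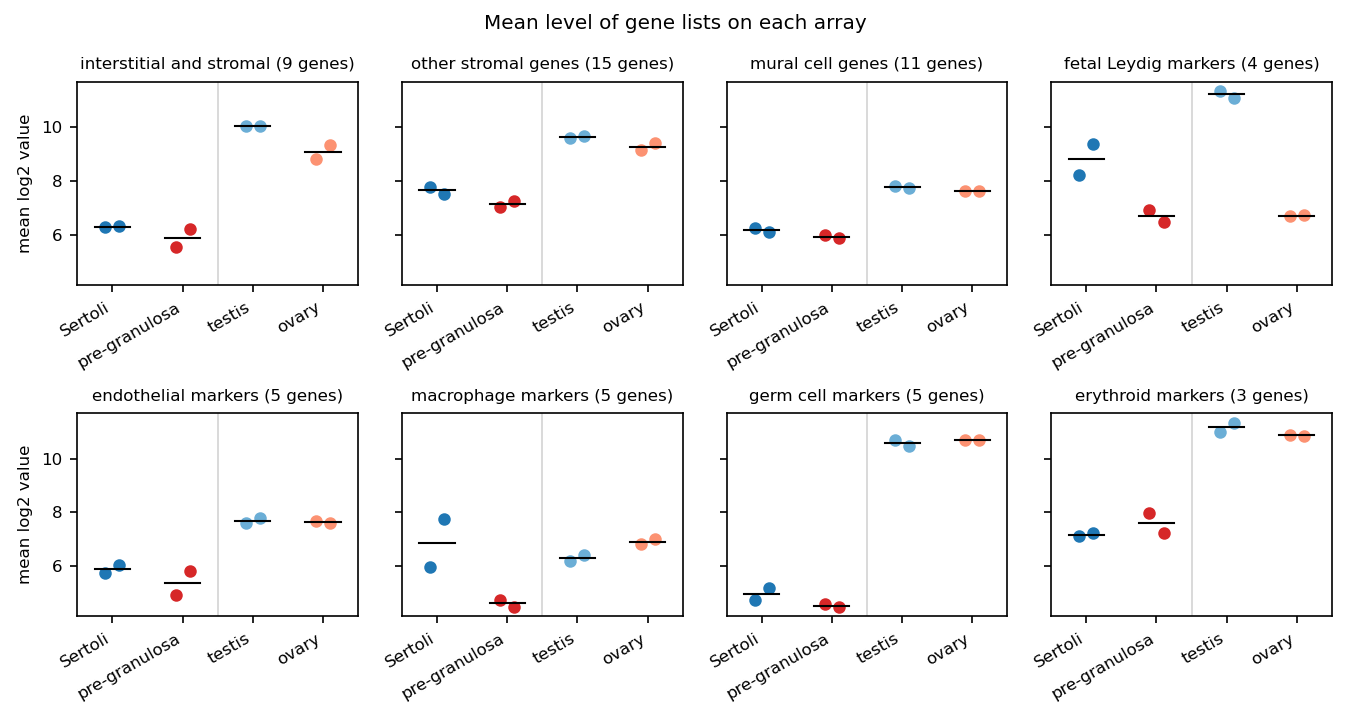
Mean log2 value of the 9 interstitial and stromal genes and of 7 lists of other genes on each array, by group. Points are arrays and bars group means, and levels are not comparable between lists. The 9 genes read 5.52 to 6.31 on sorted arrays and 8.82 to 10.07 on gonad arrays, and Sertoli replicate 2 stands above replicate 1 on the Leydig and macrophage lists.

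The testis minus ovary difference was set against the Sertoli minus pre-granulosa difference. limma called 0 of 9 genes and 0 of all 18193 genes (0%, lowest adjusted p 0.0253). An unadjusted p under 0.05 was found for 3 of the 9, Pdgfra, Lox and Enpep. The size was 1.61 ± 0.41 for Pdgfra (adjusted p = 0.21), and the other 5 genes above background in sorted cells lay between -0.91 and 0.85. For Lum, Lox and Enpep the sorted-cell term lies between background readings, so no size is given, and the unadjusted p-values of Lox and Enpep carry the same limit.

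Other genes of the same biology were read as lists. Of the 4 platelet-derived growth factor genes and Pdgfrl, which encodes a receptor-like protein, 0 were called between Sertoli and pre-granulosa cells and 0 between testes and ovaries. Pdgfa, the ligand of PDGFR-alpha, read 12.30 and 12.58 in the Sertoli samples, 9.79 and 11.05 in pre-granulosa cells, 12.70 and 12.81 in testes, and 12.05 and 12.55 in ovaries. Its Sertoli minus testis difference was 0.08 ± 0.42 (adjusted p = 0.895), and it differed by 2.02 ± 0.42 between Sertoli and pre-granulosa cells, not called (adjusted p = 0.0478). Pdgfc was the 1 called lower in pre-granulosa cells than in ovaries (-1.67 ± 0.24, adjusted p = 0.0082). Pdgfd differed by -3.93 ± 0.95 between Sertoli and pre-granulosa cells (adjusted p = 0.0771), and its Sertoli arrays read 7.07 and 3.84.

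Of 16 further transcription factors of mesenchyme measured, 4 were called lower in Sertoli cells than in testes and 4 lower in pre-granulosa cells than in ovaries. None was called higher in either. Of all genes, 4.4% and 4.11% were called lower. The medians of the 16 were -0.93 and -0.85, with 3 and 5 differences above 0. Gli2, an effector of hedgehog signalling, was lower by 2.86 and 2.25 (adjusted p = 0.00283 and 0.00557). Gli1, a hedgehog target, fell in Sertoli cells (-2.07 ± 0.20, adjusted p = 0.00291) and differed by -0.40 ± 0.20 for pre-granulosa minus ovary (adjusted p = 0.196, not called). The difference between these comparisons was not called for Gli1 either (1.69 ± 0.29, adjusted p = 0.0894). The other called genes were Twist1 and Prrx1 in both and Twist2 in pre-granulosa cells, named after their values were seen. Tcf12, a bHLH partner, was the 1 called gene between the supporting cells, lower in the Sertoli samples (-1.78 ± 0.17, adjusted p = 0.00461).

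Of 15 other stromal genes, 3 were called lower in Sertoli cells than in testes (median -1.79) and 5 lower in pre-granulosa cells than in ovaries (median -2.02), and 0 were called higher. Of all genes, 4.4% and 4.11% were called lower in these comparisons. Of the 15 differences, 5 and 1 were above 0. Cxcl12, a chemokine, was lower by 3.15 and 2.02 (adjusted p = 0.00245 and 0.00785), and Mgp, a matrix calcification inhibitor, by 3.5 and 2.91 (0.00228 and 0.0038). Ptch1, the hedgehog receptor, read 13.13 and 13.07 in Sertoli cells and 13.25 and 13.11 in testes. Its Sertoli minus testis difference missed the threshold (0.32 ± 0.13, adjusted p = 0.125). For pre-granulosa minus ovary it ran upward without overlap and was not called either (0.86 ± 0.13, adjusted p = 0.0104). Of 11 mural cell genes, 3 were called lower in each comparison, and 3 and 2 of the 11 differences were above 0 (medians -1.05 and -1.63). Kcnj8, a potassium channel of pericytes, was lower by at least 2.95-fold in Sertoli cells (adjusted p = 0.00246) and by at least 4.59-fold in pre-granulosa cells (adjusted p = 0.00135). Cspg4 ran the other way, at 0.78 ± 0.15 for Sertoli minus testis (adjusted p = 0.0161) and 0.24 ± 0.15 for pre-granulosa minus ovary (adjusted p = 0.275), not called.

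Further matrix genes were read in the same way. Of 16 crosslinking and fibrillar matrix genes, 1 was called lower in Sertoli cells than in testes, Col3a1 (-2.99 ± 0.20, adjusted p = 0.0013). In pre-granulosa cells 3 were called lower than in ovaries, Col3a1, Fn1 and Loxl1. Of all genes, 4.4% and 4.11% were called lower. The medians of the 16 were -0.28 and -0.91, with 5 and 2 differences above 0. Without overlap and by 1 log2 unit or more, 6 and 8 of the 16 were lower and 0 higher. Of all genes, 13.3% and 13.8% were lower by this rule. Sparc, a collagen-binding protein, read 13.30 and 13.34 in Sertoli cells and 13.29 and 13.21 in testes. Of 10 further proteoglycan genes, Bgn and Ogn were lower and Omd and Epyc higher in Sertoli cells than in testes. Among 7 peptidase and angiotensin genes, 0 were called between sorted cells and gonads, and Anpep, another aminopeptidase, and Agtr1a, an angiotensin II receptor, were both called lower in Sertoli cells when set against pre-granulosa cells (-3.76 ± 0.40, adjusted p = 0.00627, and at least 12.4-fold, adjusted p = 0.000999). Anpep read 5.48 and 5.68 in the Sertoli samples, 9.97 and 8.69 in pre-granulosa cells, 5.80 and 6.20 in testes, and 8.25 and 8.26 in ovaries.

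For each gene the nearest profiles over the 8 arrays were listed among 13593 genes above background, by the root mean square distance in log2 units. The nearest to Pdgfra were Chrna7 (0.341), Gucy1b1 (0.378) and the embryonic globin Hba-x (0.405). Those to Lox were the germ cell gene Dppa3 (0.43), Epha3 (0.446) and Gucy1b1 (0.491), and those to Tcf21 were Dkk1 (0.334), Hoxd3 (0.373) and Hmgb2 (0.396). Enpep stood nearest to Vgll3 (0.463), Adamts20 (0.793) and Thbd (0.916), and Nr2f2 to Itga8 (0.334), Cmpk1 (0.414) and Tfdp1 (0.447). For Pdgfrb they were Angptl7, Mtmr12 and Topors, for Nr2f1 Vav3, Plekho1 and Aldh1a2, for Dcn Gsr, Crls1 and Rnf138, and for Lum Cct8, Rims4 and Arcn1, at 0.0866 to 0.278. Among the 9 genes themselves the smallest distances were those of Pdgfrb with Lum (0.193) and Pdgfrb with Nr2f1 (0.436). The distance is not scaled, so genes with small differences lie near many others. The median distance to the genes compared was 0.86 for Pdgfrb and 0.851 for Nr2f1, against 2.2 for Pdgfra and 2.64 for Lox. By rank, Pdgfra stood at 5 for Lox and Lox at 17 for Pdgfra (0.554), while Lum stood at 39 for Pdgfrb and Pdgfrb at 396 for Nr2f1. The points share arrays and the separation of sorted cells from gonads, which markers of germ and red blood cells show too.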

How the data were processed

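Transcripts were measured in 4 groups of 2 samples, with roughly 20 ng of RNA amplified for each and 2.5 µg of cDNA hybridised, per the labels' protocols. The authors deposited log2 values, which the submitters' processing notes credit to RMA without a version. The genome build is not given in the sources used here. Of 45101 rows, 64 array controls were left out. A single symbol belonged to 34945 probe sets, several to 932 and none to 9160. Symbols were checked through gene identifiers against a RefSeq table of GRCm38.p6 for 34741 probe sets, and 0 changed. Each gene is represented by its brightest probe set (highest average of all arrays), and all others of the 9 genes are described too. No filter was applied.

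All 8 arrays entered 1 fit of group means by limma 3.58.1 (R 4.3.3, lmFit and eBayes), whose two-sided p-values were adjusted by Benjamini-Hochberg over 45037 probe sets. The fit had 4 residual degrees of freedom. Called means an adjusted p of 0.01 or less. Sorted minus gonad comparisons used values centred on each array's median. The number of arrays limits the precision. Where a group read at or under 4.78 on both arrays, a fold is given as a bound against that level. The procedure was tested on simulated data.

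The 9 genes, the lists and the tests were chosen with earlier results of these data known. All 9 genes are named. Of each list up to 3 called genes with the lowest p, up to 2 others with the highest mean and the first gene were marked for naming by rule. The text leaves out some of these and names some genes outside the rule, so the named genes of a list are examples. Alternatives were other normalizations and centrings, a filter on dim probe sets, other moderation, a weight per group, fewer arrays, a replicate block, a threshold of 0.05, the mean of a gene's probe sets and omission of each array.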

Additional observations from a re-analysis of the deposited data

Results flagged for a closer look

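Pdgfra ran in opposite directions in sorted cells and in whole gonads on its brightest probe set. It read 7.24 and 6.55 in Sertoli cells against 7.50 and 7.64 in pre-granulosa cells, and 12.41 and 12.37 in testes against 11.17 and 11.76 in ovaries, with no overlap in either pair. The difference of the differences was 1.61 ± 0.41 and was not called by limma (adjusted p = 0.21). The other probe sets of Pdgfra differed by 0.92 and 0.14 for Sertoli minus pre-granulosa and by 0.83 and 1.02 for testis minus ovary, so they did not show opposite directions.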

How the results depend on the processing

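For Sertoli minus testis the number of the 9 genes called was 5, against 3 without moderation, 8 at an adjusted p of 0.05 and 8 with the mean of all probe sets of a gene. For pre-granulosa minus ovary it was 5, against 2 without moderation and 0 with the arrays of both groups alone. With each array left out in turn these counts ranged from 0 to 6 in both comparisons, and from 0 to 1 between the supporting cells. Between the organs, and for the difference of both XY minus XX comparisons, 0 of 9 were called under every alternative run. The number of genes without overlap at 1 log2 unit was 2 for Sertoli minus pre-granulosa, 1 with the mean of all probe sets, and 1 to 3 over the omitted arrays. For testis minus ovary it was 3 to 4, for Sertoli minus testis 8 to 9 and for pre-granulosa minus ovary 8, or 9 with values as deposited.

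Directions reversed in these cases, none of them called. With the mean of all probe sets, Sertoli minus pre-granulosa was 0.13 for Pdgfra and -0.14 for Nr2f2, testis minus ovary was -0.44 for Dcn, and the difference of these comparisons was 0.68 for Nr2f2. With an array omitted, Sertoli minus pre-granulosa ranged from -0.35 to 3.67 for Nr2f2 and from -0.11 to 0.29 for Lox, and testis minus ovary from -0.34 to 0.57 for Nr2f1. The difference of the comparisons ranged from -2.92 to 1.1 for Nr2f2, from -1.67 to 0.25 for Dcn and from -0.19 to 0.85 for Tcf21. All 9 genes kept a difference below 0 for Sertoli minus testis and for pre-granulosa minus ovary under every alternative run.

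Over all genes, 485 were called for Sertoli minus pre-granulosa, against 8 without moderation, 174 with a weight per group, 0 with the sorted arrays alone and 1343 at 0.05. For testis minus ovary the 64 became 0, 257, 53 and 209, for Sertoli minus testis the 1250 became 295, 2399, 979 and 4656, and for pre-granulosa minus ovary the 982 became 141, 482, 0 and 3887, in the same order. Pre-granulosa minus ovary had 1751 with values as deposited. With an array omitted the counts of these 4 comparisons ranged from 64 to 916, 0 to 65, 0 to 2371 and 0 to 1815. The difference of the comparisons had 0 called genes, and 62 at 0.05.

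The labels give every group replicate numbers 1 and 2 without saying what a number shares, and the correlation of deviations between the compared groups was -0.0127 to 0.0411, so the numbers were not taken as pairs. With the replicate number as a block, 0 of the 9 genes were called for either XY minus XX comparison and 4 for each sorted minus gonad comparison. Of all genes, 209 were called between the supporting cells, 13 between the organs, 416 for Sertoli minus testis and 407 for pre-granulosa minus ovary. Dim probe sets limit Lum, Lox and Enpep, whose sorted-cell readings are at background.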
